A study of Mus musculus with 30 samples.

Results

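The 8 genes described here belong to the response to the aryl hydrocarbon receptor (AHR): the receptor gene Ahr itself, the repressor Ahrr, and the target genes Tiparp, Cyp1a1, Cyp1a2, Cyp1b1, Nqo1 and Aldh3a1. A window of open chromatin was counted as a member when the nearest transcription start site (TSS) of a protein-coding gene, within 50 kb, was that of one of the 8 genes. Members made up 96 of 305931 windows at 24 h and 108 of 369846 at 4 h. Of the 8 genes, 7 had at least 1 window, while Cyp1a2 had none in either table. In the 24 h and 4 h tables respectively, Ahr had 16 and 18 windows, Ahrr 8 and 14, Tiparp 23 and 22, Cyp1a1 1 and 3, Cyp1b1 23 and 26, Nqo1 16 and 15, and Aldh3a1 9 and 10. Of the members, 77 of 96 and 80 of 108 overlapped a window of the other table by at least 1 bp. At the distance limit, the farthest members were Tiparp windows at 45.6 kb in the 24 h table and 47.9 kb in the 4 h table, and the nearest windows left out lay 50.2 kb from Cyp1b1 in both tables. The Tiparp window at 45.6 kb had means of 12.4 normalized counts in controls, 21.6 with CK666 and 27.0 with CytoD at 24 h. Neither change was called by the edgeR test described below (adjusted p = 0.255 and 0.0718). The Cyp1b1 window at 50.2 kb had means of 11.2 in 24 h controls and 17.0 with CK666.

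Accessibility was measured by ATAC-seq, in which a transposase cuts and tags open DNA, in 21 libraries of 7 groups with 3 libraries each. Marrow-derived mesenchymal stem cells (MSC) of C57BL/6J mice, prepared from several animals and kept as a primary line, were untreated (CTL) or given CK666 or cytochalasin D (CytoD) for 24 h. In a separate experiment MSC and NIH 3T3 cells were untreated or given CK666 for 4 h. NIH 3T3 is an established line of mouse embryonic fibroblasts that was derived from Swiss mice, although the labels list C57BL/6J for it as well. CK666, an indole compound, blocks the Arp2/3 complex, which branches actin filaments, whereas CytoD caps filament ends and breaks filaments down. No dose is given in the labels. The question put to these windows was whether CK666 opened chromatin near AHR target genes in both cell types, and whether CytoD did not.

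AHR is a receptor of the basic helix-loop-helix PAS family that waits in the cytoplasm with HSP90. On binding a ligand, which can be a planar aromatic pollutant or an indole derived from diet or tryptophan, it enters the nucleus, pairs with Arnt and binds xenobiotic response elements (XRE) with the core GCGTG. Its targets include the oxidases Cyp1a1, Cyp1a2 and Cyp1b1 and the feedback inhibitors Ahrr, which competes for Arnt, and Tiparp, an ADP-ribosyltransferase that marks AHR for loss. The quinone reductase Nqo1 and the aldehyde dehydrogenase Aldh3a1 complete the set, and Nqo1 also responds to NRF2, which binds antioxidant response elements (ARE).

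Total counts ran from 14071301 to 22352180 per library in the 24 h table and from 14496058 to 34979833 in the 4 h table, where the first NIH 3T3 CK666 library was the shallowest. Windows over a TSS were present for 4 of 9 stromal and 4 of 4 fibroblast marker genes in the 24 h table, for 2 of 5 haematopoietic genes (Cd68 and Csf1r, 44.1 and 78.1 normalized counts per kb in controls) and for 2 of 3 endothelial genes. In 24 h controls the stromal genes with such a window ran from 56.9 per kb (Prrx1) to 411 (Pdgfrb). In control MSC at 4 h, Csf1r and Cd68 had 145 and 167 per kb. The 6 stromal genes with a TSS window there ran from 1.28 (Thy1) to 541 (Pdgfra), with a median of 131. Levels of the stromal and haematopoietic lists thus overlapped. Windows over a TSS were absent in both tables for the leukocyte genes Ptprc, Spi1 and Itgam and the endothelial gene Pecam1. The stromal surface genes Eng, Ly6a and Nt5e also lacked one. Fewer open cells and less accessibility per cell cannot be told apart in such libraries. Every CK666 library of the 24 h table was compared with the same controls as CytoD, so these comparisons share samples and only the direct comparison of CK666 with CytoD sets them against each other.

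The sequences on which the results turn are given from 5′ to 3′ on the strand of the gene, in lower case with matches to the XRE core GCGTG or to the ARE consensus TGACNNNGC, searched on both strands, in capitals. RefSeq promoters (build GRCm38.p6, the 250 bases before the start) were matched for 6 of the 8 genes, of which 4 held the core (Tiparp, Cyp1a1, Cyp1b1 and Ahrr) and those of Nqo1 and Cyp1a2 did not, and 28.3% of 32544 promoters of this length held the core. The promoter of Cyp1a1 is shown as that of the standard AHR reporter gene and the promoter of Tiparp as that of the gene with the gain at 24 h, with 1 core each.
Tiparp promoter, chr3:65528197-65528446, plus strand: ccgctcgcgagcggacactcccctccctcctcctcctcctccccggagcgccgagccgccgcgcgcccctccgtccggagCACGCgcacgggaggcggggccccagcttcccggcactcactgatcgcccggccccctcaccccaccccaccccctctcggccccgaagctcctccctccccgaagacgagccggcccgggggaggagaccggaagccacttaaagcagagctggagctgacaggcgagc
Cyp1a1 promoter, chr9:57697363-57697612, plus strand: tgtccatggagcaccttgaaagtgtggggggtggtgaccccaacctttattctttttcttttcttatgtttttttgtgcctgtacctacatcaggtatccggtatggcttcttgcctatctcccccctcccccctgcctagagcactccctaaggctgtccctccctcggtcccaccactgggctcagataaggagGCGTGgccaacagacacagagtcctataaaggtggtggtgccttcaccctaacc
The central 300 bases of 3 windows (build GRCm38) are shown because each carried a change with CK666, or a difference in it between cell types, that was called in every leave-out of 1 library, namely a Tiparp intron that gained accessibility with CK666, a Nqo1 intron where the response to CK666 differed between cell types, and a distal Cyp1b1 window that lost accessibility in NIH 3T3 cells.
Tiparp intron window, centre, chr3:65533688-65533987, plus strand: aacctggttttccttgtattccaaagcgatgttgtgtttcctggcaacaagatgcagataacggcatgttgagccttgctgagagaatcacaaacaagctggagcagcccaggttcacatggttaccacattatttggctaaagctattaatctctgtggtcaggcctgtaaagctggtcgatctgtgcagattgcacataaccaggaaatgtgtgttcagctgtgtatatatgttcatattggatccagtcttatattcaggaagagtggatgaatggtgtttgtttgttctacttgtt
Nqo1 intron window, centre, chr8:107400633-107400932, minus strand: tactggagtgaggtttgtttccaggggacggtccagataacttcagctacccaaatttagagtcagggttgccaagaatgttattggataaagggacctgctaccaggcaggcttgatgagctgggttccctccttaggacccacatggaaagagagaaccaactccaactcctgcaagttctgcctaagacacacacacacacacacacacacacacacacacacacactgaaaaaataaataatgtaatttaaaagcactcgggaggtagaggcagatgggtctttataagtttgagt
Cyp1b1 upstream window, centre, chr17:79757350-79757649, minus strand: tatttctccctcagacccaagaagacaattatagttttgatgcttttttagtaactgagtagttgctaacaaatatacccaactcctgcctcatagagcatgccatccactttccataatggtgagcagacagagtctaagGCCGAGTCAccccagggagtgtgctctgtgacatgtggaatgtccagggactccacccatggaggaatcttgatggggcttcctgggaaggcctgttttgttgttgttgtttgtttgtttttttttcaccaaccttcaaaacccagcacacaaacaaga
The Tiparp and Nqo1 intron windows held neither motif in their whole length, and the Cyp1b1 window held 1 ARE match and no XRE core.

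Few member windows changed with either compound. A window was called higher or lower when its Benjamini-Hochberg adjusted p (edgeR quasi-likelihood test, adjusted over all windows) was below 0.01 and its log2 fold change above 1 in size. With CK666 for 24 h, 1 of 95 tested member windows was higher, against 1.88% of all windows, and 0 were lower by edgeR, against 1.06% of all windows. At an unadjusted p under 0.05, 10 members were lower (10.5%, against 9.83% of all windows) and 9 higher (9.47%, against 10.9%). DESeq2 called 0 lower and 1 higher. With CytoD, 3 of 95 were lower, against 1.4% of all windows, and 0 were higher by edgeR, against 0.98%. For that count of 0, 4 members (4.21%) were higher at an unadjusted p under 0.05, against 10.8% of all windows, and DESeq2 called 0. In the direct comparison, 3 of 95 were higher with CK666 than with CytoD, against 2.14% of all windows, and 0 were lower by edgeR, against 1.14%. At an unadjusted p under 0.05, 7 members (7.37%) were lower, against 10.6% of all windows, and DESeq2 called 0 lower.

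At 4 h, 1 of 91 tested members was higher with CK666 in MSC, against 0.59% of all windows, and 0 were lower by edgeR, against 0.427%. For that count of 0, 11 members (12.1%) were lower at an unadjusted p under 0.05, against 9.57% of all windows, and DESeq2 called 0. For NIH 3T3 cells 1 of 95 was lower, against 1.67%, and 0 were higher by edgeR, against 1.87%. At an unadjusted p under 0.05, 11 members (11.6%) were higher, against 13.7% of all windows, and DESeq2 called 0 higher. The median log2 fold change of the members, beside that of all windows, was 0.06 and 0.02 with CK666 at 24 h, −0.14 and 0.04 with CytoD, 0.0075 and 0.0012 with CK666 at 4 h in MSC, and 0.02 and 0.04 in NIH 3T3 cells. Of the members, 54 of 95, 46 of 91 and 49 of 95 lay above 0 in the 3 CK666 comparisons. Scaling by library totals in place of TMM moved the median of all windows to 0.12 with CytoD and 0.15 with CK666 in NIH 3T3 cells, where the members' medians became −0.06 and 0.13. The share of higher calls among all calls then went from 41.2% to 56.4% with CytoD, from 65.3% to 53.8% in the direct comparison and from 52.8% to 69.5% in NIH 3T3 cells. By edgeR with TMM, 6216 of all windows were higher and 5549 lower with CK666 in NIH 3T3 cells. DESeq2 called 3174 higher and 4827 lower there. The paper, also using DESeq2, reports more gains than losses in these cells. Its count of gains equals the count of DESeq2 losses found here. The directions in MSC were those of the paper. Signs given for NIH 3T3 cells and for differences between cell types follow the library labels. The cause of the disagreement was not tested.

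**Figure D1:**
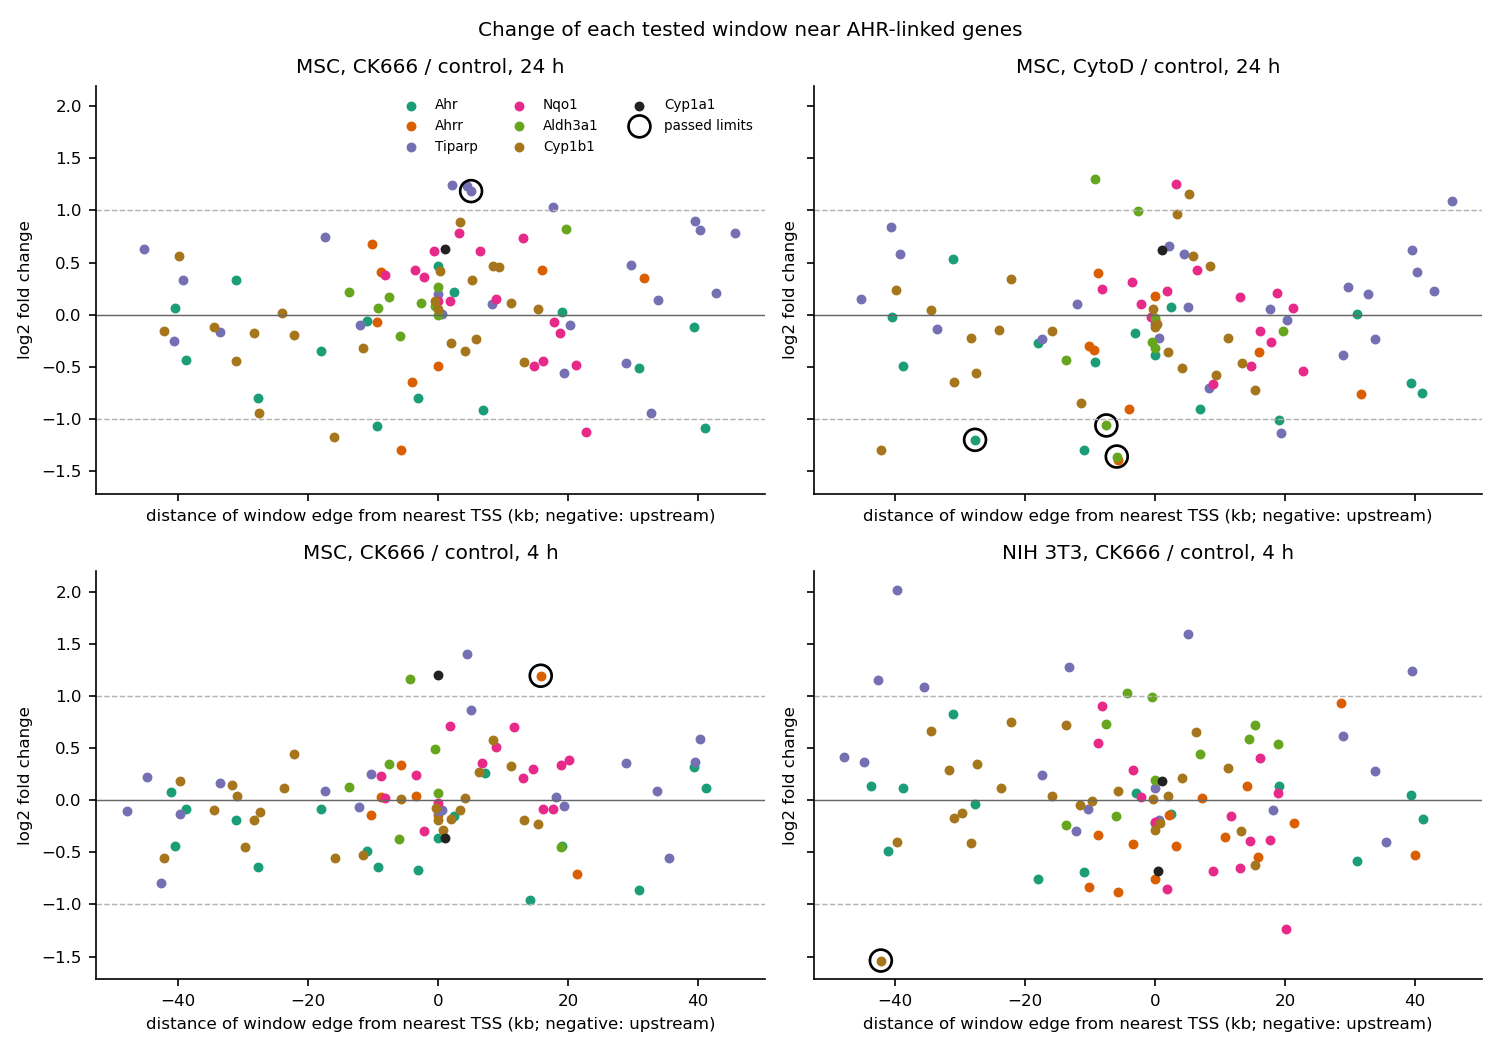
Log2 fold change (vertical axis) of each tested member window against the distance of its edge from the nearest TSS in kb (horizontal axis, negative upstream), coloured by gene, with 1 panel for each of CK666 and CytoD at 24 h and CK666 at 4 h in MSC and in NIH 3T3 cells. Circles mark the windows past both limits, which number 1 with CK666 at 24 h, 3 with CytoD, 1 in MSC at 4 h and 1 in NIH 3T3 cells, among points spread on both sides of 0.

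At the TSS windows in untreated MSC of the 24 h experiment, levels per kb of window ran from 742 ± 64.0 normalized counts (SD, n = 3) at Tiparp and 642 ± 20.5 at Nqo1 through 138.5 ± 16.2 at Ahr, 110.2 ± 19 at the larger of the Aldh3a1 windows and 76.2 ± 20.3 at Cyp1b1 to 25.4 ± 4.41 at Ahrr. The libraries of Ahr and Aldh3a1 overlapped, as the highest Aldh3a1 value of 129.4 lay above the lowest Ahr value of 119.9, whereas the other neighbours in this order did not. In untreated MSC of the 4 h experiment the order was Tiparp, Nqo1, Ahr, Aldh3a1, Cyp1b1 and Ahrr, with 1212 per kb at Tiparp and 86.9 at Ahrr. There Aldh3a1 at 148 and Cyp1b1 at 138 per kb overlapped between libraries. The Cyp1a1 window over the start of the longer GENCODE transcript was lowest, with 16.9 per kb in MSC and 14.1 in NIH 3T3 cells. The tables were normalized separately, so levels are not set against each other between them.

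**Figure D2:**
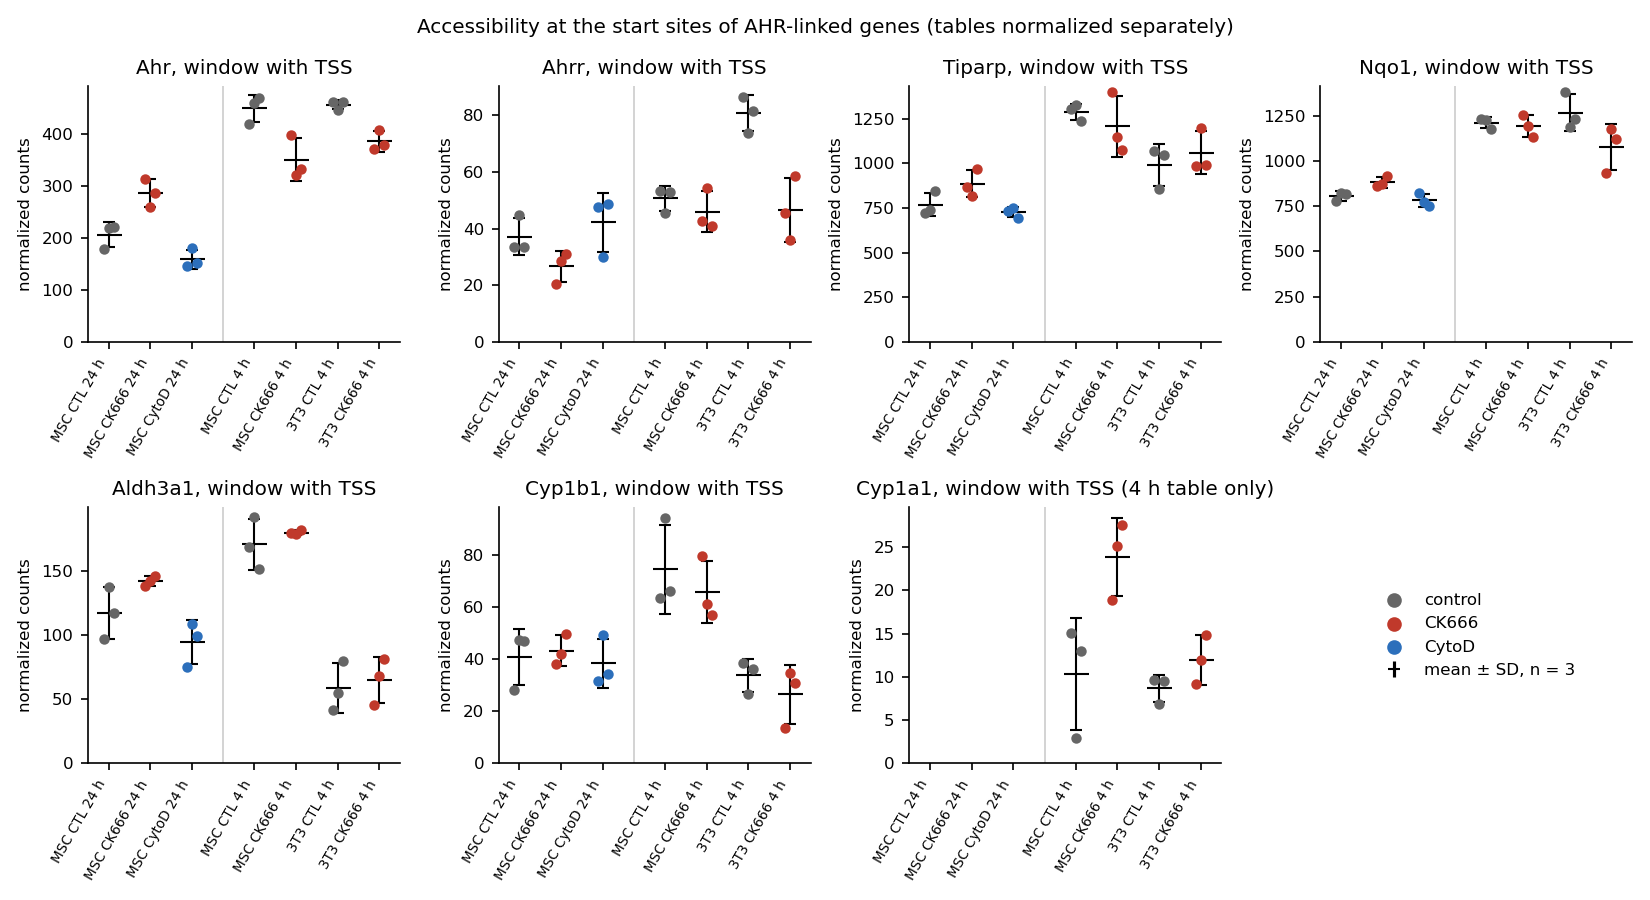
Normalized counts (vertical axis) in the window over the start of each gene, by group (horizontal axis), with 24 h groups left and 4 h groups right of the line and the tables normalized separately. Points are libraries and bars the mean ± SD (n = 3); Ahr at 24 h was highest with CK666, with libraries from 259 to 314 against 178 to 222 in controls, while Tiparp and Nqo1 overlapped or nearly touched between control and CK666.

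Among the feedback inhibitors, Tiparp held the member window that was called higher with CK666 at 24 h. The window chr3:65533554-65534121, in a Tiparp intron 5.1 kb downstream of the start, had 56.4, 42.9 and 45.0 normalized counts in the 3 controls, 102, 112 and 112 with CK666 and 42.7, 50.4 and 56.0 with CytoD. Every CK666 library lay above every control and CytoD library, while the control and CytoD libraries interleaved. The mean of 48.1 ± 7.27 (SD, n = 3) in controls rose to 108 ± 5.74, with a log2 fold change of 1.19 ± 0.21 (SE; adjusted p = 9.82e-06). With CytoD the log2 fold change was 0.07 (adjusted p = 0.885), and CK666 exceeded CytoD by 1.11 ± 0.21 (adjusted p = 3.77e-05). The call with CK666 held under each leave-out of 1 library, with log2 fold changes from 1.09 to 1.28.

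The same intron was measured in the second experiment as chr3:65533558-65534124. The libraries had 32.2, 37.7 and 29.0 normalized counts in control MSC and 70.0, 60.2 and 50.7 with CK666 for 4 h. In NIH 3T3 cells they had 9.62, 9.46 and 1.90 in controls and 12.2, 26.1 and 23.8 with CK666. The groups did not overlap in either cell type, yet neither change passed the limits, with log2 fold changes of 0.86 ± 0.24 (adjusted p = 0.0139) in MSC and 1.59 ± 0.54 (adjusted p = 0.0372) in NIH 3T3 cells. The difference between the cell types in this response was 0.73 on the log2 scale (adjusted p = 0.496), and the untreated level was lower in NIH 3T3 cells by a log2 fold change of −2.22 ± 0.39 (adjusted p = 1.42e-06). A neighbouring window at chr3:65532943-65533483 had 9.999 ± 1.79 in control MSC and 26.7 ± 7.30 with CK666 at 4 h (log2 fold change 1.41 ± 0.39, adjusted p = 0.0123).

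No other Tiparp window was called with CK666, although 2 intron windows with few counts had larger fitted log2 fold changes at 24 h, of 1.25 (means 8.96 and 20.3, adjusted p = 0.166) and 1.24 (means 9.46 and 22.4, adjusted p = 0.0902). The TSS window (chr3:65527612-65528647, with 7 matches to the core) had 721, 742 and 845 normalized counts in controls, 870, 819 and 972 with CK666 and 734, 750 and 694 with CytoD. Controls and CK666 overlapped here, and the log2 fold change of 0.20 ± 0.08 had an adjusted p of 0.101. At 4 h that start had means of 1290 and 1207 in MSC (adjusted p = 0.388) and 991 and 1060 in NIH 3T3 cells (adjusted p = 0.573). An exonic window 17.7 kb downstream (chr3:65546124-65547581) had means of 24.0 ± 5.85 in controls, 48.4 ± 2.59 with CK666 and 24.4 ± 1.40 with CytoD, with a log2 fold change for CK666 of 1.03 ± 0.30 (adjusted p = 0.014). Over all 23 tested Tiparp windows of the 24 h table, 16 had a log2 fold change above 0 with CK666 and the median was 0.21.

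**Figure D3:**
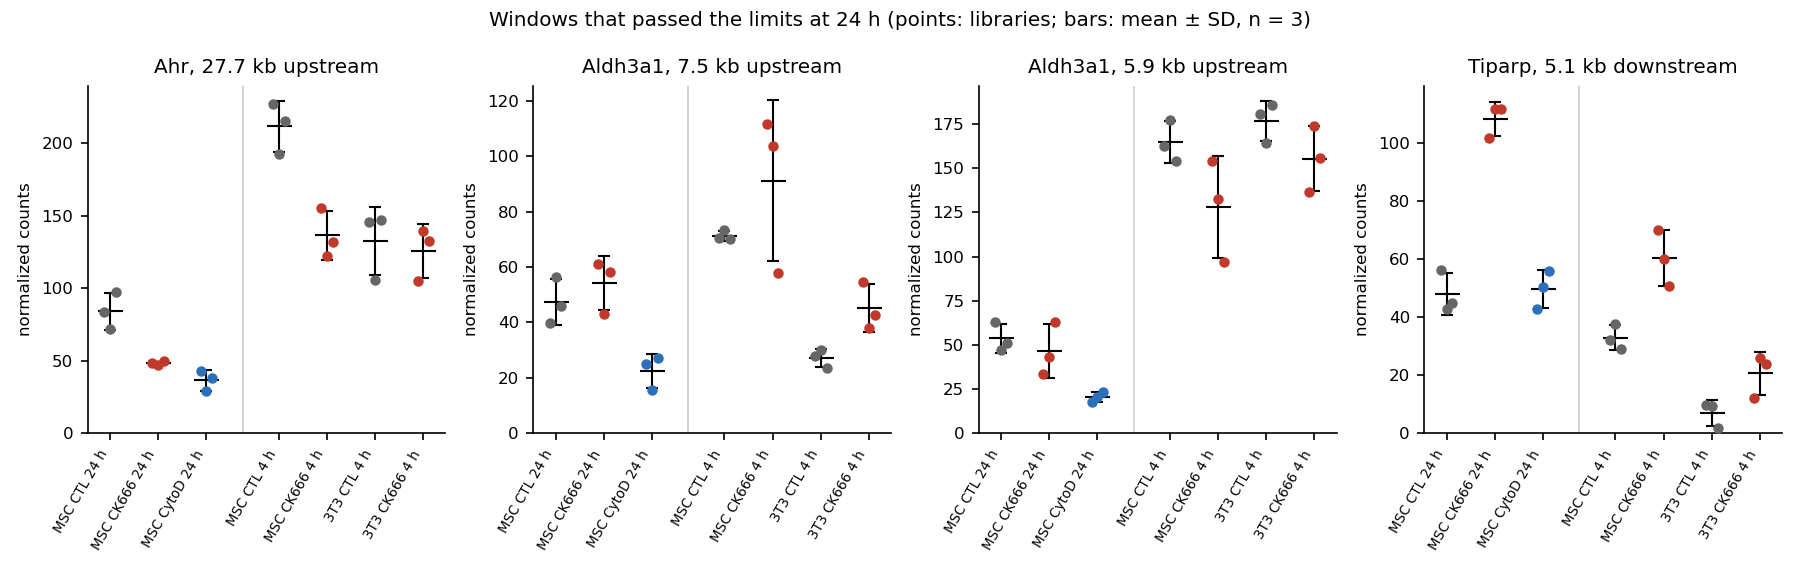
Normalized counts (vertical axis) of the 4 member windows that passed the limits with CK666 or CytoD at 24 h, by group (horizontal axis), beside the overlapping window of the 4 h table to the right of the line. Points are libraries and bars the mean ± SD (n = 3); the Tiparp intron reached 102 to 112 with CK666 against 42.9 to 56.4 in controls, and the Ahr and both Aldh3a1 windows were lowest with CytoD.

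Ahr encodes the receptor, and the window over its start lay higher with CK666 at 24 h and lower at 4 h, a difference between experiments that was not tested. At 24 h (chr12:35533877-35535363, 6 matches to the core) the libraries had 178, 218 and 222 normalized counts in controls, 314, 259 and 286 with CK666 and 146, 179.9 and 151 with CytoD. All CK666 libraries lay above all others. The log2 fold change of 0.46 ± 0.12 had an adjusted p of 0.00512 and that of CytoD, −0.39 ± 0.13, one of 0.0432, so that CK666 exceeded CytoD by 0.85 ± 0.13 (adjusted p = 2.07e-07), and all 3 changes were below the fold limit. At 4 h the libraries had 419, 459.8 and 468 in control MSC against 397, 320.2 and 332 with CK666, that is, lower with CK666 (log2 fold change −0.37 ± 0.09, adjusted p = 0.00299). In NIH 3T3 cells the means were 456 ± 9.14 and 385 ± 19.7 (log2 fold change −0.22, adjusted p = 0.273).

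A window 27.7 kb upstream of Ahr (chr12:35562725-35563361) had 83.4, 71.5 and 97.1 normalized counts in controls, 48.1, 47.3 and 49.5 with CK666 and 42.7, 28.8 and 37.9 with CytoD. Both compounds lay wholly below the controls. The loss passed the limits with CytoD, at −1.20 ± 0.24 (adjusted p = 1.31e-04), and held in every leave-out, while with CK666 it was −0.80 ± 0.22 (adjusted p = 0.0106) and the compounds differed by 0.40 (adjusted p = 0.338). At 4 h the overlapping window had 212 ± 17.7 in control MSC and 136 ± 17.0 with CK666, with an adjusted p of 2.12e-04 and a log2 fold change of −0.64 ± 0.13, below the fold limit. The means in NIH 3T3 cells were 133 ± 23.3 and 126 ± 18.2 (adjusted p = 0.912), and the difference between cell types had an adjusted p of 0.131. Of 15 tested Ahr windows at 24 h, 5 had a log2 fold change above 0 with CK666, with a median of −0.35.

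Windows of Ahrr, the repressor, differed between the cell types in their response to CK666. The intronic window 15.8 kb downstream of the start (chr13:74275443-74276490) had 16.1, 15.9 and 18.0 normalized counts in control MSC and 42.6, 30.9 and 41.8 with CK666 at 4 h. In NIH 3T3 cells the values were 40.6, 40.4 and 37.0 in controls and 18.2, 22.8 and 36.7 with CK666. Neither pair of groups overlapped, and they moved in opposite directions. The gain in MSC had a log2 fold change of 1.19 ± 0.31 (adjusted p = 0.00714), the value in NIH 3T3 cells was −0.54 (adjusted p = 0.263) and the difference between the cell types was −1.76 ± 0.45 (adjusted p = 0.00947). The MSC call was lost in 5 of 6 leave-outs and the difference in 11 of 12, and with all libraries kept the MSC call was also lost under DESeq2 and without a filter on low counts, and the difference under library totals and the replicate block.

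Nearer to Ahrr, the window 5.8 kb upstream (chr13:74298093-74298635) had means of 90.0 ± 12.4 and 114 ± 12 in control and CK666 MSC and 65.3 ± 14.3 and 34.3 ± 6.09 in NIH 3T3 cells, and the difference between the responses was −1.24 ± 0.30 (adjusted p = 0.00664), lost in 7 of 12 leave-outs. At 24 h the corresponding window (chr13:74298070-74298650) had 33.0 ± 6.34 in controls, 13.5 ± 2.28 with CK666 and 12.8 ± 12 with CytoD, with adjusted p of 0.0275 and 0.0211. The Ahrr start had 33.4, 44.6 and 33.5 normalized counts in controls at 24 h and 20.3, 28.4 and 31.1 with CK666, which did not overlap (log2 fold change −0.49, adjusted p = 0.366). In NIH 3T3 cells at 4 h it had 80.7 ± 6.37 in controls and 46.6 ± 11.3 with CK666 (log2 fold change −0.76 ± 0.23, adjusted p = 0.0175).

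The Cyp1a1 windows held few counts. Cyp1a1, the standard reporter of AHR activity, had a single window at 24 h, in an intron 1.0 kb downstream of the shorter transcript's start (chr9:57698639-57699180). It held 7.70, 10.9 and 10.6 normalized counts in controls, 12, 13.8 and 20.4 with CK666 and 16.3, 19.2 and 10.8 with CytoD. The CK666 libraries lay above the controls and those of CytoD overlapped them, with log2 fold changes of 0.63 (adjusted p = 0.519) and 0.62 (adjusted p = 0.497). At 4 h the window over the start of the longer transcript (chr9:57687720-57688333) had 15.1, 2.97 and 13.0 in control MSC and 18.9, 25.1 and 27.6 with CK666 (log2 fold change 1.20 ± 0.42, adjusted p = 0.0622). NIH 3T3 cells had 9.62, 6.88 and 9.47 there in controls and 9.12, 12 and 14.9 with CK666, too few for the count filter.

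Cyp1b1, the oxidase of the family known from stromal cells and fibroblasts, had no call at its start. The window there (chr17:79714819-79715352) had 28.2, 47.1 and 46.8 normalized counts in controls, 37.9, 42.1 and 49.5 with CK666 and 31.4, 49.2 and 34.3 with CytoD, all overlapping, with log2 fold changes of 0.06 (adjusted p = 0.94) and −0.12 (adjusted p = 0.847). At 4 h the means were 74.5 ± 17.1 and 65.8 ± 12 in MSC and 33.7 ± 6.24 and 26.4 ± 11.2 in NIH 3T3 cells, with adjusted p of 0.68 and 0.632. The adjoining upstream window with 7 matches to the core (chr17:79715448-79716077) had means of 41.4 in controls and 45.5 with CK666 at 24 h (adjusted p = 0.841).

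Farther out, one Cyp1b1 window lost accessibility in NIH 3T3 cells. The window 42.2 kb upstream (chr17:79757236-79757763) had 232, 180.5 and 239 normalized counts in control NIH 3T3 cells and 62.3, 85.9 and 70.3 with CK666 at 4 h. No library overlapped, the log2 fold change was −1.54 ± 0.17 (adjusted p = 3.3e-10), and the call held under every alternative and leave-out in which the window was a member. In MSC the libraries had 71.3, 64.4 and 41.0 in controls and 39.7, 29.3 and 51.6 with CK666, which overlapped (log2 fold change −0.56, adjusted p = 0.169), and the difference between cell types was −1.003 (adjusted p = 0.032). At 24 h the overlapping window (chr17:79757235-79757772) had means of 23.2 in controls, 20.7 with CK666 and 9.05 with CytoD. Its log2 fold changes were −0.16 with CK666 (adjusted p = 0.88) and −1.30 with CytoD (adjusted p = 0.0489). A different window, 31.0 kb upstream (chr17:79746051-79746587), had at 24 h 516, 551 and 542 in controls, 393, 376 and 414 with CK666 and 352, 342 and 340.4 with CytoD. Both compounds lay wholly below the controls there, by log2 fold changes of −0.45 ± 0.09 (adjusted p = 1.98e-04) and −0.64 ± 0.09 (adjusted p = 2.13e-07), less than the fold limit. At 4 h the window overlapping this one had log2 fold changes with CK666 of 0.04 in MSC (adjusted p = 0.794) and −0.17 in NIH 3T3 cells (adjusted p = 0.428).

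Nqo1, the quinone reductase, had a broadly open start with no call. The window (chr8:107402558-107403812) had 776, 823 and 817 normalized counts in controls, 860, 872 and 918 with CK666 and 821, 774 and 750.4 with CytoD at 24 h. The CK666 libraries lay above the controls, though the log2 fold change was 0.13 ± 0.08 (adjusted p = 0.332), and the CytoD libraries overlapped the controls. At 4 h the means at the start were 1212 and 1196 in MSC and 1268 and 1078 in NIH 3T3 cells, with adjusted p of 0.874 and 0.262.

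Within the gene, the Nqo1 intron window 1.9 kb downstream (chr8:107400234-107401331) responded differently in the cell types. Its libraries had 48.2, 50.5 and 38.0 normalized counts in control MSC and 71.9, 79.4 and 73.0 with CK666. In NIH 3T3 cells they had 98.3, 124 and 119 in controls and 66.9, 62.0 and 59.5 with CK666. Each pair of groups was fully separate. The log2 fold changes were 0.71 ± 0.21 (adjusted p = 0.0248) in MSC and −0.85 ± 0.20 (adjusted p = 0.00144) in NIH 3T3 cells, neither past the fold limit, and their difference of −1.58 ± 0.29 passed both limits (adjusted p = 1.47e-04) in the full data and in all 12 leave-outs. The untreated level was higher in NIH 3T3 cells, by a log2 fold change of 1.32 (adjusted p = 5.84e-08). In MSC at 24 h the overlapping window (chr8:107400190-107401352) had 28.4 ± 2.11 in controls and 30.7 ± 10.9 with CK666. These libraries overlapped, with a log2 fold change of 0.13 (adjusted p = 0.875).

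**Figure D4:**
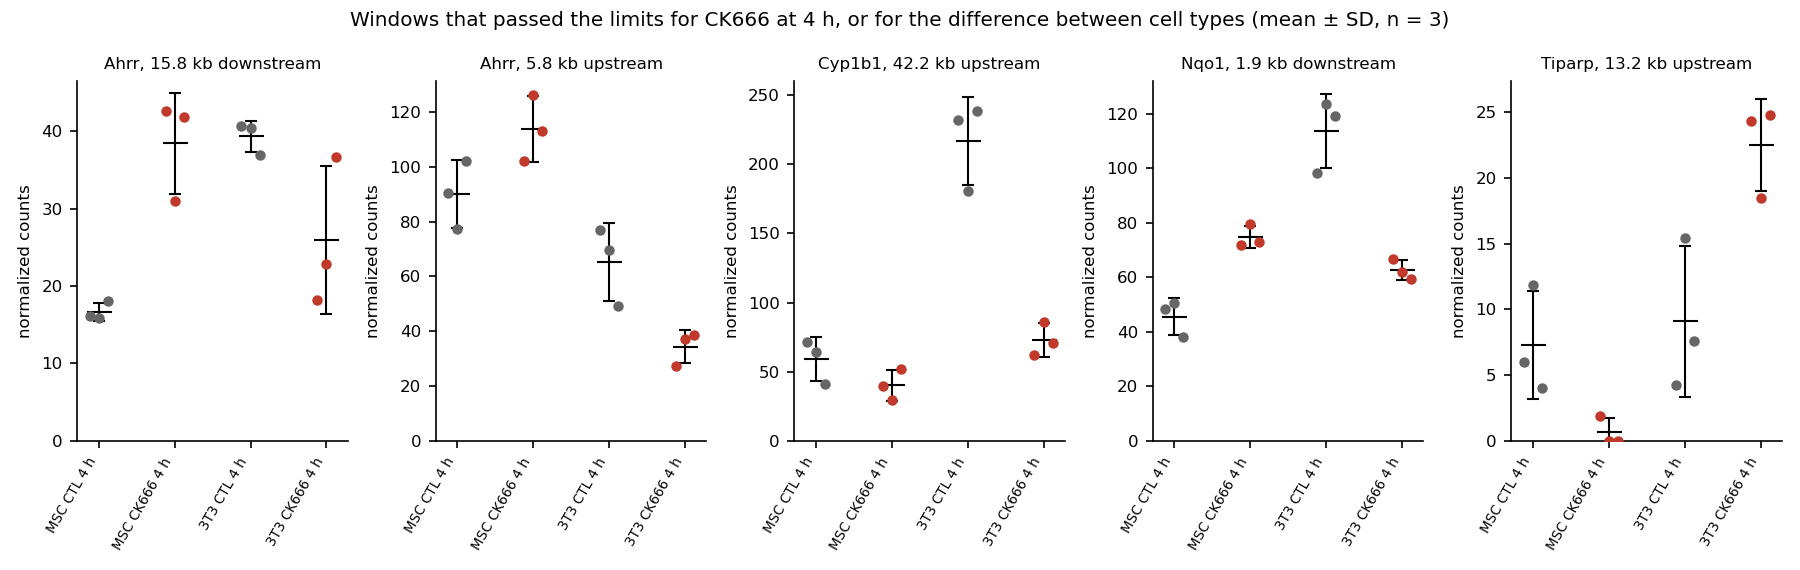
Normalized counts (vertical axis) in control and CK666 libraries of MSC and NIH 3T3 cells at 4 h (horizontal axis) for the member windows that passed the limits with CK666 in a cell type or for the difference between cell types. Points are libraries and bars the mean ± SD (n = 3); the Nqo1 intron had means of 45.6 and 74.8 in MSC and of 114 and 62.8 in NIH 3T3 cells, and the Cyp1b1 window of 217 and 72.8 in NIH 3T3 cells.

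Aldh3a1, which oxidises aldehydes, contributed both remaining losses with CytoD. The window 5.9 kb upstream (chr11:61200990-61201648, 1 match each to the core and the ARE) had 62.9, 47.1 and 51.2 normalized counts in controls, 33.3, 43.0 and 63.1 with CK666 and 17.6, 20.4 and 23.5 with CytoD. The CytoD libraries lay below all others and those of CK666 overlapped the controls. The log2 fold change was −1.36 ± 0.30 with CytoD (adjusted p = 6.64e-04) and −0.20 with CK666 (adjusted p = 0.736). CK666 exceeded CytoD by 1.16 ± 0.30 (adjusted p = 0.00428), a call lost in 4 of 9 leave-outs and under DESeq2. The window 7.5 kb upstream (chr11:61199493-61200045) had 39.8, 56.4 and 45.9 in controls, 61, 43.0 and 58.2 with CK666 and 25.1, 15.6 and 27.1 with CytoD. Its loss with CytoD of −1.06 ± 0.29 (adjusted p = 0.00936) was dropped in 5 of 9 leave-outs. With all libraries kept, that call was also lost under 4 of 8 other settings. These were DESeq2, library totals, a mean of at least 20 counts and a fit of only the compared groups. CK666 exceeded CytoD by 1.24 ± 0.29 (adjusted p = 0.00118), dropped in 2 of 9 leave-outs.

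The start of Aldh3a1 (chr11:61207775-61208841, 5 matches to the core) had 97.5, 138 and 117 normalized counts in controls, 139, 143 and 147 with CK666 and 75.4, 109 and 99.3 with CytoD. The log2 fold changes were 0.26 (adjusted p = 0.36) and −0.32 (adjusted p = 0.247), and CK666 exceeded CytoD by 0.59 ± 0.17 (adjusted p = 0.00967), below the fold limit. At 4 h the means were 171 and 180.4 in MSC and 58.8 and 65.1 in NIH 3T3 cells (adjusted p = 0.828 and 0.659).

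Many more member windows passed the limits between the cell types than with either compound. In untreated cells 17 of 108 members were higher in NIH 3T3 cells, against 16.2% of all windows, and 25 were lower, against 18.3%. Ahrr had 5 windows higher and 0 lower, Cyp1b1 3 higher and 9 lower, Ahr 3 and 6, and Tiparp 2 and 6. The window 3.3 kb upstream of Ahrr (chr13:74295653-74296892) had means of 286 in MSC and 673 ± 70.7 in NIH 3T3 cells (log2 fold change 1.23, adjusted p = 6.84e-16). Conversely the Aldh3a1 start was lower in NIH 3T3 cells by a log2 fold change of −1.53 (adjusted p = 2.59e-11) and that of Cyp1b1 by −1.15 (adjusted p = 9.25e-05). The difference in response to CK666, taken as NIH 3T3 minus MSC, was called above 0 at 1 of 108 members, against 0.498% of all windows, and below 0 at 3, the Ahrr and Nqo1 windows above, against 0.905%. The former was a Tiparp window 13.2 kb upstream (chr3:65514470-65515191) with 6.03, 11.9 and 4.00 normalized counts in control MSC, 1.89, 0 and 0 with CK666, 4.28, 15.5 and 7.58 in control NIH 3T3 cells and 24.3, 18.5 and 24.8 with CK666. Its fitted difference of 4.63 (adjusted p = 0.00477) depends on counts at or near 0 and is no bound.

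The share of windows with at least 1 match to the XRE core was alike in members and all windows of the 24 h table, at 31 of 96 (32.3%) against 32.5%. In the 4 h table it was 35 of 108 (32.4%) against 29.2%. Matches per kb of window were denser in the members, at 0.941 against 0.661 over all windows at 24 h and 0.911 against 0.619 at 4 h. The longer form TNGCGTG, which contains the core, occurred in 12 of 96 members (12.5%) against 7.18%, and in 15 of 108 (13.9%) against 6.25%. The ARE occurred in 30 of 96 (31.3%) against 27.8%. Among tested members of the 24 h table, the median log2 fold change with CK666 was 0.13 in the 31 with a core and 0.02 in the 64 without, and with CytoD it was −0.22 and −0.03. Over all tested windows the medians were 0.018 with a core and 0.022 without for CK666, and 0.024 and 0.052 for CytoD. The members with a core were richer in GC, with a median of 48.4% against 42.8%, and the split among members was not tested. In the 4 h table the medians with CK666 were 0.02 and −0.02 in MSC and 0.04 and −0.0045 in NIH 3T3 cells. Of the 4 windows called at 24 h, 1 held the core, the Aldh3a1 window 5.9 kb upstream that was lower with CytoD.

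Other genes of the xenobiotic and oxidant response were described from lists. Of the 12 genes of the NRF2 system, which induces glutathione and redox enzymes, 10 of 168 tested windows were higher (5.95%) and 2 lower (1.19%) with CK666 at 24 h. The shares over all windows were 1.88% and 1.06%. With CytoD 1 was higher and 1 lower (0.595% each), against 0.98% and 1.4% of all windows. DESeq2 called 7 higher and 2 lower with CK666, and 0 higher and 1 lower with CytoD. At 4 h 13 of 181 were higher in MSC (7.18%, against 0.59% of all windows) and 0 lower by edgeR, against 0.427% (9 and 0 by DESeq2). At an unadjusted p under 0.05 there were 71 in either direction, while 9.52% of all windows were higher and 9.57% lower. Among NIH 3T3 libraries 1 of 182 was higher (0.55%, against 1.87% of all windows) and 0 lower (against 1.67%) by both tools. At an unadjusted p under 0.05 there were 52 in either direction, while 13.7% of all windows were higher and 12.9% lower. The list's median log2 fold change was 0.28 at 24 h and 0.22 at 4 h in MSC, beside 0.02 and 0.0012 over all windows. A window over Hmox1, the haem oxygenase (chr8:75093961-75104938), rose from 742 ± 39.5 to 2187 ± 251 normalized counts in MSC at 4 h (log2 fold change 1.55 ± 0.06, adjusted p = 5.2e-36), and one near Srxn1, sulfiredoxin (chr2:152113642-152116377), rose from 125 ± 12.8 to 561 ± 11.8 (log2 fold change 2.16 ± 0.10, adjusted p = 8.3e-31). The responses of these windows differed between cell types by −1.27 and −2.001 on the log2 scale. Of the list, 6 of 207 windows (2.9%) were called for that difference, all below 0 for NIH 3T3 minus MSC, against 0.905% of all windows. At 24 h a window 2.0 kb from the start of Me1, malic enzyme (chr9:86689284-86690126), rose from 4.29 ± 1.67 to 71.2 ± 13.4 (log2 fold change 3.95 ± 0.39, adjusted p = 2.71e-13). Another Me1 window, 13.0 kb from the start (chr9:86708921-86709645), fell from 68.1 ± 7.96 to 20.2 ± 9.58 (log2 fold change −1.745 ± 0.29, adjusted p = 3.7e-06). The remaining called loss of the list with CK666 at 24 h lay near Gclc.

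Of 8 further AHR targets, which include the NRF2 gene Nfe2l2 of the list above, 0 of 106 windows were higher with CK666 at 24 h by edgeR, against 1.88% of all windows. By edgeR 1 was lower (0.943%), against 1.06%, and DESeq2 called none. At an unadjusted p under 0.05 there were 24 in either direction, while 10.9% of all windows were higher and 9.83% lower. With CytoD 1 of 106 was higher, near Scin (0.943%, against 0.98% of all windows), and DESeq2 also called 1. None was lower with CytoD by either tool, against 1.4% of all windows. CK666 exceeded CytoD at 2 of 106, near Nfe2l2 and Ugt1a6a (1.89%, against 2.14%), with 1 by DESeq2. At 4 h 2 of 106 were higher in MSC (near Ugt1a6a and Ugt1a6b, 0 by DESeq2), against 0.59% of all windows. In NIH 3T3 cells 2 of 99 were higher (near Slc7a5 and Ugt1a6a, 2 by DESeq2), against 1.87%. The Ugt1a6a start in NIH 3T3 cells had means of 89.9 and 182 normalized counts (log2 fold change 1.05, adjusted p = 3.35e-06). Ugt1a6a and Ugt1a6b are near-identical copies, so reads may have been split between them. Of the 6 partners and chaperones of AHR, 2 of 70 windows were lower with CK666 at 24 h, both near Arnt2, against 1.06% of all windows. Of 7 genes of the related receptors PXR and CAR, 1 of 69 windows was lower with CK666 at 24 h, near Abcb1a, against 1.06% of all windows, and 1 of 69 was lower with CytoD, near Nr1i2, against 1.4%. DESeq2 also called 1 lower in each. At 4 h 2 of 74 were higher in NIH 3T3 cells, near Cyp2b10, against 1.87% of all windows, with 1 by DESeq2.

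**Figure D5:**
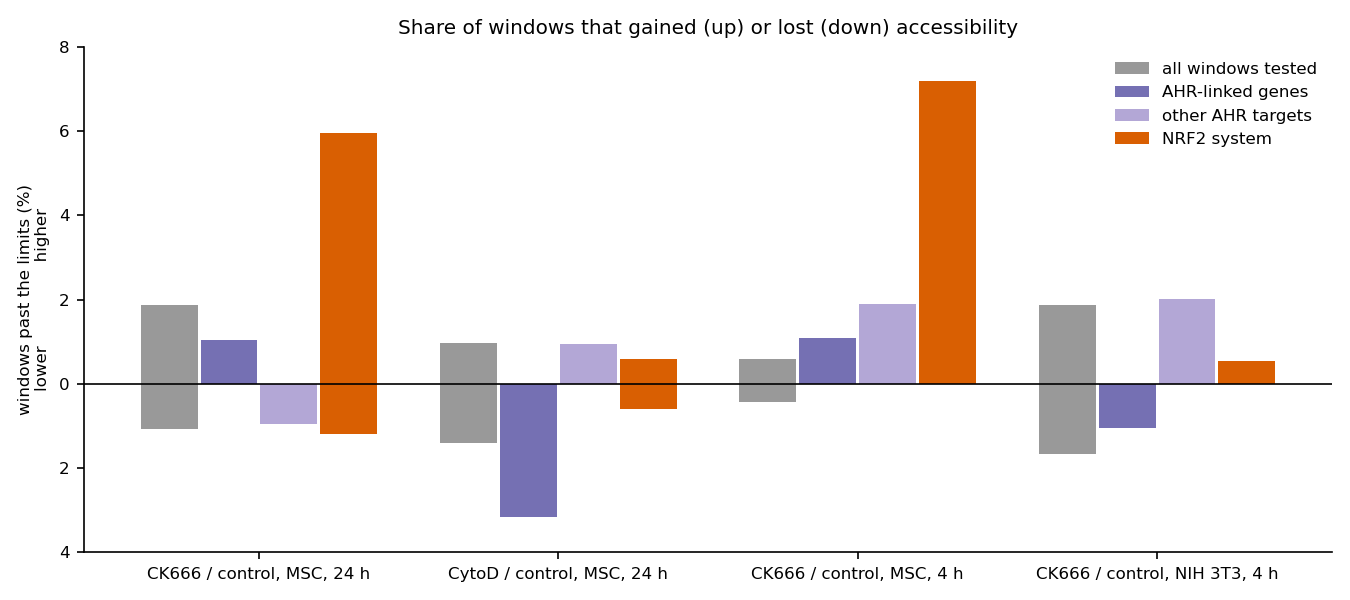
Share of tested windows (vertical axis, percent) that were higher (bars upward) or lower (bars downward) past both limits, for 4 comparisons (horizontal axis), over all windows, the windows of the 8 AHR genes and further lists as coloured. With CK666 at 24 h the bar of all windows stands at 1.88% upward and that of the NRF2 list at 5.95%, and at 4 h in MSC at 0.59% and 7.18%.

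Over the 9 libraries of the 24 h table, the TSS windows whose log2 levels ran most like that of Cyp1b1 were those of Fam92a (Pearson r = 0.958), Rap1gap (r = 0.932) and Trpm3 (r = 0.927), out of 16680 TSS windows compared. For Nqo1 they were Olfr175-ps1 (r = 0.982), Cep72 (r = 0.979) and Utrn (r = 0.976). With 9 libraries and so many windows such values describe these libraries alone.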

How the data were processed

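ATAC-seq (Omni-ATAC) libraries of treated and untreated MSC and NIH 3T3 cells were analysed. The authors aligned reads with bowtie2, called peaks with MACS2 within PEPATAC and deposited raw read counts per window of the union of peaks, 1 table for the 24 h experiment and 1 for the 4 h experiment, on build mm10 per the labels. The versions of these tools were not given in the sources used here. The 9 siRNA columns of the 24 h table were not used. Depth was 14071301 to 34979833 counts per library.

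Windows were assigned to genes with GENCODE vM21 (GRCm38) by a TSS inside the window or otherwise the nearest protein-coding TSS within 50 kb, and start coordinates were written 1-based. Counts were filtered with filterByExpr, scaled by TMM and tested with the edgeR 4.0.16 quasi-likelihood test (R 4.3.3), with Benjamini-Hochberg adjustment over all windows. The 9 libraries of the 24 h table shared 1 fit. At 4 h, MSC and NIH 3T3 cells were fitted apart, and all 12 libraries together for the difference between cell types. Normalized counts are counts divided by the effective library size and multiplied by the geometric mean of these sizes over the table. DESeq2 1.42.0, other scalings, filters, limits, a GC correction, a replicate block, other gene assignments and leave-outs were run as alternatives. The statistics were tested on simulated data. Motifs were searched with Python 3.11.15 in the reference sequence under each window.

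The members and lists were chosen with earlier results of these data known. Member windows were named by rule: those over a member's start, those called, for each gene the smallest p with CK666 and the highest level, and those with most XRE cores. For some of these the overlapping window of the other table is also given. The Tiparp exonic window and 2 low-count Tiparp intron windows at 24 h were named after their values were seen. The Hmox1, Srxn1, Me1 and Ugt1a6a windows of the further lists fell under no such rule and were taken from the windows called, with their values known. The labels do not say that libraries of a group came from separate cultures, so p-values measure only the spread between these samples, which may be technical. Libraries of a group differed by more than sampling noise, and libraries with the same replicate number did not deviate together (correlations of deviations from −0.07 to 0.03), so the numbers were not taken as pairs.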

Additional observations from a re-analysis of the deposited data

Results flagged for a closer look

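The response to CK666 at 4 h differed between NIH 3T3 cells and MSC at 4 member windows, by the interaction term of the edgeR fit over 12 libraries. The differences, NIH 3T3 minus MSC on the log2 scale, were −1.58 at the Nqo1 intron window, −1.76 at the Ahrr intron window 15.8 kb downstream, −1.24 at the Ahrr window 5.8 kb upstream and 4.63 at the Tiparp window 13.2 kb upstream. The Nqo1 difference was called in all 12 leave-outs, the Ahrr differences were lost in 11 and 7 of 12, and the Tiparp value rests on counts at or near 0 in MSC given CK666. Groups of 3 libraries were too small to look for single outlying libraries. The signs of these differences follow the labels of the NIH 3T3 libraries. For these libraries the balance of DESeq2 gains and losses was the reverse of the paper's, as given above.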

How the results depend on the processing

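Over all alternatives, counts and other summary values stayed within 1.5 times the reported one in 217 cases and moved beyond it in 57. Values of single windows kept direction and side of the threshold in 556 cases, lost the call in 52 and changed sign in 16. Counts of members called that moved beyond 1.5 times the reported ones are given as higher or lower. Smaller moves are not all listed. Among them, DESeq2 called 2 lower with CytoD and 2 higher in the direct comparison. Between untreated cell types it called 18 higher and 22 lower. With adjusted p under 0.05 and no fold limit, CK666 at 24 h called 4 higher and 5 lower, CytoD 10 lower, the direct comparison 8 higher and 1 lower, CK666 at 4 h 4 and 4 in MSC and 5 and 7 in NIH 3T3 cells, the difference between cell types 2 higher, and the untreated comparison 27 higher. With a mean of at least 20 counts, CK666 called 2 higher at 24 h, 2 in MSC at 4 h and 1 in NIH 3T3 cells, and the difference between cell types 0 higher. With the nearest TSS within 5 kb, every count of higher or lower members fell to 0 except 1 lower for the difference between cell types and 4 higher and 8 lower between untreated cell types. With the nearest TSS of any gene, 0 remained higher with CK666 at 24 h, lower with CytoD, higher in the direct comparison and higher for the difference between cell types, and 14 were lower between untreated cell types. These alternatives have fewer member windows by construction. Fitting only the compared groups gave 1 lower with CK666 at 24 h. DESeq2 gave 0 higher with CK666 in MSC at 4 h and 0 for the higher difference between cell types, no filter gave 0 higher in MSC at 4 h, and library totals gave 1 lower for the difference between cell types. The cause of these moves was not tested. The longer XRE core was found in 12 and 15 members.

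Leaving out 1 library each gave 1 to 1 higher and 0 to 0 lower with CK666 at 24 h, 2 to 6 lower with CytoD (6 without control replicate 1), 1 to 3 higher in the direct comparison (1 without CytoD replicate 2), 0 to 1 higher in MSC at 4 h (0 without any control or without CK666 replicate 1 or 3), 1 to 2 lower in NIH 3T3 cells (2 without control replicate 3), 0 to 1 higher and 1 to 3 lower for the difference between cell types, and 15 to 20 higher and 22 to 25 lower between untreated cell types. With the replicate number as a block, the difference between cell types had 1 member lower instead of 3, and the block changed no other count of members by over 1.5 times.

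Sign changes touched TSS windows with log2 fold changes near 0. The smaller Aldh3a1 start window had 0.0155 with CK666 under the replicate block and −0.1719 to 0.0887 over leave-outs, and with CytoD 0.0399 under library totals and −0.5169 to 0.1951 over leave-outs. Leave-outs of the larger one gave −0.0043 to 0.1613 in MSC at 4 h and −0.0212 to 0.4402 in NIH 3T3 cells. Those of the Cyp1b1 start gave −0.1429 to 0.1461 with CK666 at 24 h and −0.3453 to 0.013 in MSC at 4 h, and those of the Tiparp start −0.0029 to 0.1576 in NIH 3T3 cells. The Nqo1 start with CytoD had 0.0303 under library totals and 0.0141 with a mean of at least 20 counts. With the difference between cell types, library totals moved the median of all windows to 0.15 and the share of higher calls from 35.5% to 53.8%, against 25.2% with DESeq2, and between untreated cell types the share from 46.9% to 59.2%. Windows with few counts, such as those of Cyp1a1, limit what these depths can show.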
